A study of Mus musculus with 12 samples.

Results

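Messenger RNA of 10 receptors through which peptides and serotonin act on appetite was examined in the arcuate nucleus (ARC) of mice carrying an activating change in the energy sensor AMPK. The receptors were chosen by name: the melanocortin receptors *Mc3r* and *Mc4r*, the neuropeptide Y (NPY) receptors *Npy1r*, *Npy2r* and *Npy5r*, the GLP-1 receptor *Glp1r*, the calcitonin receptor *Calcr*, the serotonin receptors *Htr2c* and *Htr1b*, and the μ-opioid receptor *Oprm1*. All 10 were found, each once, among the 38283 genes of the expression table, and 8 of the 10 were among the 14017 genes with a mean level of at least 1 FPKM (sequenced fragments scaled to the length of the transcript and to the mapped fragments of the library) that were tested. *Htr1b* and *Mc4r* lay under that level.

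The animals were male C57BL/6 mice, aged 8 weeks and fed ad libitum. The WT group (5 libraries) had wild-type γ2 AMPK, and the Homo group (7 libraries) was homozygous for the AMPK R299Q knock-in, an amino acid change in the γ2 subunit encoded by *Prkag2*. The change sits in the gene itself, so it is not limited to the ARC, to neurons or to adult life. Total RNA came from ARC cut by laser from frozen brain sections 14 µm thick and was amplified across the whole transcriptome before sequencing.

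The ARC lies at the base of the hypothalamus, where circulating hormones and nutrients reach neurons that govern feeding. Neurons that release AGRP and NPY promote eating, and POMC neurons, which release melanocortins, reduce it. All 10 receptors studied are G protein-coupled. MC3R and MC4R receive the melanocortins, and AGRP opposes them there. The Y1 and Y5 receptors carry much of the feeding action of NPY, whereas Y2 is largely a presynaptic receptor that restrains NPY release. GLP-1, amylin (through the calcitonin receptor) and serotonin (through 5-HT2C on POMC neurons) lower food intake, and opioids acting on the μ receptor tend to raise it.

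The libraries carried the markers of the tissue they were labelled as. *Agrp*, *Npy* and *Pomc* were above 0 in every library, with means of 385, 1281 and 787 FPKM, while the 4 ventromedial nucleus markers averaged between 0.0709 (*Nr5a1*) and 1.54 FPKM (*Adcyap1*). Transcripts of neighbouring tissue varied widely between libraries. The 4 paraventricular markers, led by *Oxt* (mean 152 FPKM) and with *Crh* at 0.0528, summed to between 8.88 (WT 4) and 1030.0 FPKM (WT 5) in WT and between 15.6 and 572 in Homo. The 6 pituitary markers summed to 117 FPKM in WT 3, 68.4 in WT 5 and 56.4 in Homo 7, and to at most 11.8 in the other libraries. The summed level of 11 ARC neuron markers ranged from 1365 (WT 3) to 4702 FPKM in WT and from 3465 to 5248 in Homo, and 9 of the 11 had the higher mean in Homo. The sum of the 7 general neuron markers measured ranged from 800 FPKM (WT 3) to 1092 in WT and from 844 (Homo 3) to 1147 in Homo. The 6 microglial markers summed to between 40.0 and 58.2 FPKM in WT and between 50.4 and 87.7 in Homo, with all 6 higher in Homo on average. All 6 oligodendrocyte markers also had the higher mean log2 level in Homo. Their sums were 88.8 to 550.0 FPKM in WT and 153 to 403 in Homo. Of the 6 ependymal and tanycyte markers tested, 1 was higher in Homo on the log2 scale, while 3 of the 7 measured had the higher mean FPKM in Homo. The 7 measured summed to 38.9 to 55.2 FPKM in WT and 22.0 (Homo 3) to 59.9 (Homo 1) in Homo. Of the astrocyte and of the endothelial markers, 4 of 6 each were higher in Homo. Astrocyte sums were 261 to 438 FPKM in WT and 209 to 375 in Homo, and endothelial sums 24.5 to 39.1 and 26.3 to 51.0. The part of these cells in the receptor values was not tested. The libraries also fell into 2 sets by the number of genes above 0. In 7 of them (WT 1 and 2, Homo 1 to 5) 15742 to 16467 genes were above 0, and in 5 (WT 3 to 5, Homo 6 and 7) 18141 to 18635. The titles of Homo 6 and 7 are worded differently from those of Homo 1 to 5, and no label names a batch. Genotype was therefore compared over all libraries and also within each set. *Prkag2* itself, in which the knock-in is a missense change and whose level is no check of the labels, lay between 7.73 and 22.5 FPKM in WT and between 8.61 and 24.0 in Homo (exact permutation test, p = 0.898).

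The levels of the receptors spanned a wide range in the ARC. The order of the mean FPKM over the 12 libraries was *Oprm1* (26.3), *Glp1r* (19.5), *Calcr* (19.5), *Npy2r* (18.2), *Npy1r* (16.1), *Mc3r* (6.26), *Npy5r* (4.00), *Htr2c* (2.23), *Htr1b* (0.509) and *Mc4r* (0.343). *Oprm1* was higher than 81.4% of the genes tested, *Npy1r* higher than 71.3%, *Mc3r* than 44.4% and *Htr2c* than 16.4%. Neighbours in this order were compared within libraries on the log2(FPKM + 1) scale by an exact two-sided sign-flip permutation test, with p-values adjusted over the 9 pairs. *Oprm1* exceeded *Glp1r* in 10 of 12 libraries, with a mean difference of 0.38 (adjusted p = 0.0450, exact test). The next neighbours, from *Glp1r* to *Npy1r*, did not differ beyond their spread (adjusted exact p from 0.348 to 0.905). A step separated *Npy1r* from *Mc3r*, with *Npy1r* higher in 12 of 12 libraries by 1.19 (adjusted exact p = 0.0022). *Mc3r* was above *Npy5r* in 10 libraries by 0.62 (adjusted exact p = 0.00586), and *Htr2c* above *Htr1b* in 12 of 12 by 1.07 (adjusted exact p = 0.0022). *Npy5r* was above *Htr2c* in 11 libraries by 0.58 (adjusted exact p = 0.105), and *Htr1b* above *Mc4r* in 8 by 0.18 (adjusted exact p = 0.313), which did not pass. Opioid, GLP-1, calcitonin, Y2 and Y1 receptor transcripts were thus the highest of the 10, with means between 16.1 and 26.3 FPKM, and 5-HT1B and MC4R transcripts were close to 0.

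**Figure D1:**
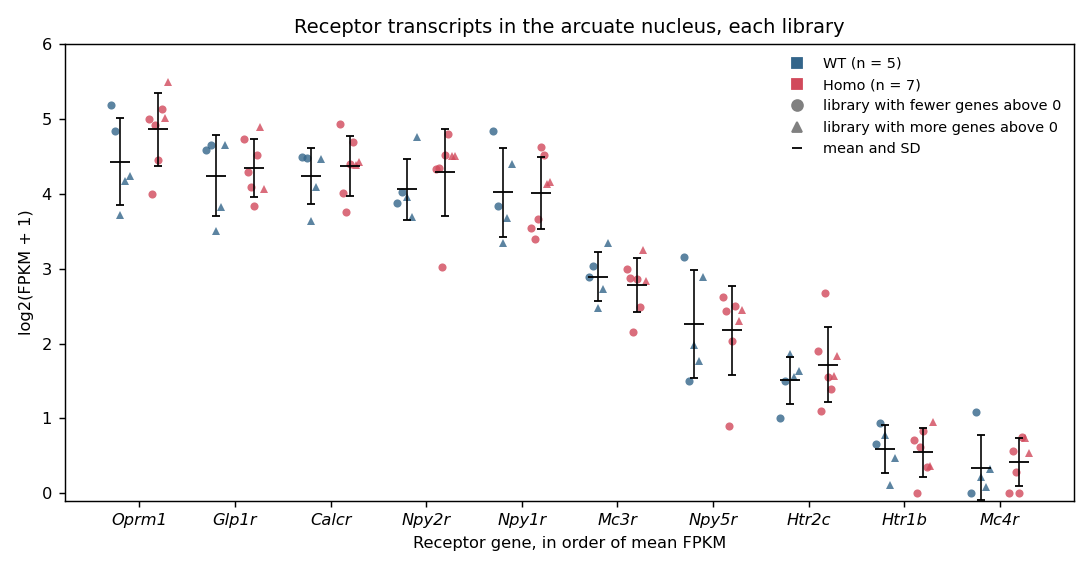
Level of each receptor as log2(FPKM + 1) on the vertical axis, in order of mean FPKM, with 1 point per library (blue WT, n = 5; red Homo, n = 7; circles and triangles mark libraries with fewer and with more genes above 0) and bars for the mean and SD. The points of both genotypes overlap for all 10 receptors, and the step between *Npy1r* and *Mc3r* is seen in every library.

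Whether the γ2 mutation changed the abundance of these receptors was asked by comparing Homo with WT. No change was detected in any receptor, though at this number of libraries the intervals leave room for sizeable ones in both directions. On the FPKM + 1 scale the highest upper limits were 2.07-fold for *Oprm1* and 1.79-fold for *Npy2r*. The lowest lower limits were 0.557-fold for *Npy5r* and 0.640-fold for *Npy1r*. By limma on log2(FPKM + 1), 0 of the 8 tested receptors had an adjusted p under 0.05, against 1 of 14017 genes (0.00713%), and 0 of 8 had an unadjusted p under 0.05, against 5.55% of all genes. The mean was higher in Homo for 5 of the 8, against 49.3% of all genes, and the median log2 fold change of the 8 was 0.12, against -0.0062 over all genes tested. The groups overlapped for every receptor, and 0.221% of all genes had groups that did not. Fold changes are on the log2(FPKM + 1) scale, which understates the change of genes of low level, and in a sample of bulk tissue fewer cells with a receptor cannot be told apart from less receptor RNA per cell.

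**Figure D2:**
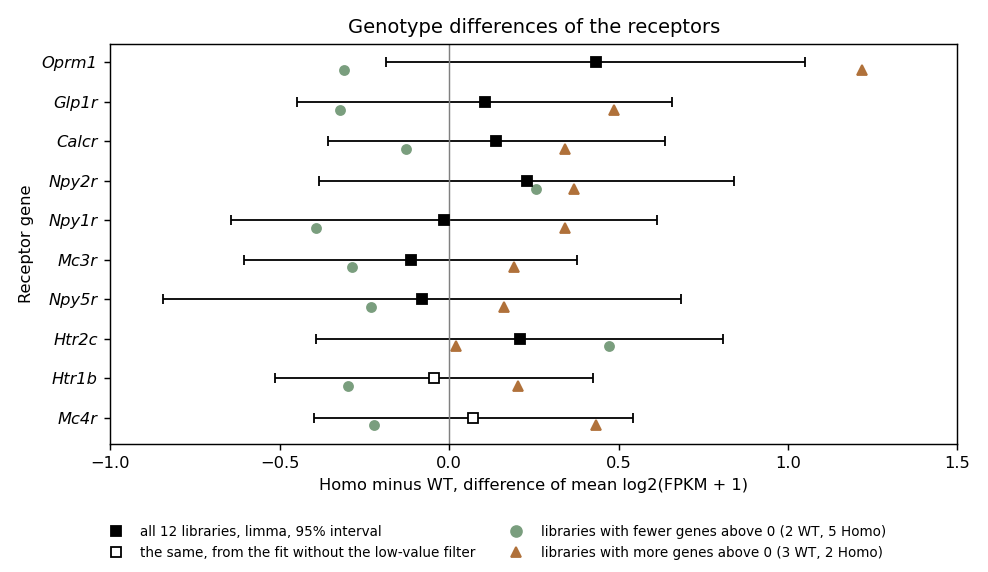
Homo minus WT difference of mean log2(FPKM + 1) for each receptor (squares, with limma's 95% interval over 12 libraries; open squares from the fit without the filter on low values), beside the difference within the libraries with fewer (circles) and with more genes above 0 (triangles). All 10 intervals include 0, and only *Npy2r* and *Htr2c* have all 3 values on 1 side of 0.

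Of the melanocortin receptors, *Mc3r* was the one measured well above 0. MC3R is found on AGRP and POMC neurons, where it tunes the response to energy shortage. Its gene lies on chromosome 2 (172248492 to 172251114, plus strand, GRCm38). *Mc3r* was at 6.42, 7.17, 4.54, 5.65 and 9.12 FPKM in WT 1 to 5, and in Homo its lowest value was 3.43 (Homo 3), the median 6.24 and the highest 8.47 (Homo 6). WT 5 was the highest of all libraries and Homo 3 the lowest, and 2 of the 7 values in Homo exceeded the median of WT. The mean was 6.58 ± 1.72 FPKM (SD, n = 5) in WT and 6.04 ± 1.62 (n = 7) in Homo. The log2 fold change was -0.11 with a standard error (SE) of 0.23 and a 95% interval of -0.61 to 0.38 (limma, adjusted p = 0.973; exact permutation p = 0.588). Among the tested receptors it had the smallest spread over libraries, with a coefficient of variation of 25.7%.

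MC4R, the melanocortin receptor whose loss causes obesity, acts mainly outside the ARC, above all in the paraventricular nucleus. *Mc4r* was listed at 0 in WT 1, Homo 1 and Homo 4. In WT 2 to 5 it was at 1.12, 0.161, 0.0643 and 0.249 FPKM, and the highest Homo value was 0.691. WT 2 held the highest value, and both genotypes reached down to 0. No difference was detectable at this level (exact permutation p = 0.768), and the fit without the filter gave a log2 fold change of 0.072 with an interval of -0.40 to 0.54 (limma, adjusted p = 0.957).

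The NPY receptors were all present, Y1 and Y2 at similar levels and Y5 lower. *Npy1r* (chromosome 8, 66697192 to 66706792, plus strand) encodes the postsynaptic receptor of NPY and was at 27.7, 13.3, 9.13, 11.8 and 20.1 FPKM in WT 1 to 5. In Homo it ranged from 9.50 (Homo 2) through a median of 16.6 to 23.7 FPKM (Homo 4). WT 1 was the highest library and WT 3 the lowest, so the whole Homo range lay inside that of WT. The means were 16.4 ± 7.48 FPKM (SD, n = 5) in WT and 15.8 ± 5.54 (n = 7) in Homo, a log2 fold change of -0.015 with an interval of -0.64 to 0.61 (limma, adjusted p = 0.995; exact permutation p = 0.955).

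*Npy5r* (chromosome 8, 66679965 to 66688128, minus strand) lies head to head with *Npy1r*, with 9063 bases and 0 annotated genes between them. It was at 7.90, 1.84, 2.93, 2.39 and 6.41 FPKM in WT 1 to 5, and ranged in Homo from 0.871 (Homo 3) through a median of 4.43 to 5.13 FPKM (Homo 1). WT 1 and WT 5 were the highest of all libraries, and Homo 3 was the lowest. The mean was 4.29 ± 2.69 FPKM (SD, n = 5) in WT and 3.80 ± 1.44 (n = 7) in Homo, with a log2 fold change of -0.080 (interval -0.84 to 0.69; limma, adjusted p = 0.990; exact permutation p = 0.837). The neighbours *Npy1r* and *Npy5r* moved together over the libraries only loosely, with a Pearson r of 0.49 on the log2 scale (permutation p = 0.106, adjusted over 28 pairs of receptors 0.196), a Spearman rho of 0.46 (permutation p = 0.135, adjusted 0.345), and r = 0.32 without WT 1 and WT 3. Within the 7 libraries with fewer genes above 0, r was 0.41.

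*Npy2r* (chromosome 3, 82538383 to 82548084, minus strand), the receptor at which NPY and gut PYY hold back NPY neurons, was at 13.6, 15.2, 14.6, 11.9 and 26.0 FPKM in WT 1 to 5. In Homo its lowest value was 7.13 FPKM (Homo 3), the median 21.7 and the highest 26.9 (Homo 5). In 6 of 7 Homo libraries it exceeded the median of WT, while Homo 3 lay below every WT library. The mean was 16.3 ± 5.56 FPKM (SD, n = 5) in WT and 19.7 ± 6.09 (n = 7) in Homo, which is 20.8% higher. This difference did not pass the test (log2 fold change 0.23, SE 0.29, interval -0.38 to 0.84; limma, adjusted p = 0.937; exact permutation p = 0.471). Without Homo 3 the log2 fold change was 0.44 and its unadjusted limma p 0.0469, with an adjusted p of 0.839.

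The GLP-1 and calcitonin receptors stood at nearly the same level and tended to be high and low in the same libraries. *Glp1r* (chromosome 17, 30901817 to 30940791, plus strand), a target of incretin drugs found on POMC neurons, was at 22.9, 24.1, 10.4, 13.2 and 24.0 FPKM in WT 1 to 5. In Homo it ranged from 13.3 (Homo 4) through a median of 18.5 to 28.7 FPKM (Homo 6). WT 3 and WT 4 lay below every Homo library, and Homo 1 and Homo 6 lay above every WT library. The means were 18.9 ± 6.61 (SD, n = 5) and 20.0 ± 5.65 FPKM (n = 7), with a log2 fold change of 0.10 (SE 0.26, interval -0.45 to 0.66; limma, adjusted p = 0.985; exact permutation p = 0.694).

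*Calcr* (chromosome 6, 3685680 to 3764714, minus strand) was at 21.5, 21.3, 11.4, 16.0 and 21.1 FPKM in WT 1 to 5, and in Homo between 12.5 (Homo 3) and 29.6 FPKM (Homo 1) around a median of 20.1. WT 3 and Homo 3 were the lowest of their groups, and Homo 1 and Homo 5 lay above every WT library. The mean was 18.3 ± 4.47 FPKM (SD, n = 5) in WT and 20.4 ± 5.70 (n = 7) in Homo (log2 fold change 0.14, SE 0.23, interval -0.36 to 0.64; limma, adjusted p = 0.962; exact permutation p = 0.553). Over the 12 libraries *Glp1r* and *Calcr* had the highest Pearson r of the 28 pairs of tested receptors, 0.70 (permutation p = 0.0119, adjusted 0.166), with a Spearman rho of 0.61 (permutation p = 0.0398, adjusted 0.278). Leaving out WT 3 and WT 4, the libraries farthest from the median of *Glp1r*, r was 0.49, and within the 7 libraries with fewer genes above 0 it was 0.63.

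The calcitonin receptor becomes an amylin receptor when it pairs with a receptor activity-modifying protein (RAMP), and transcripts of all 3 RAMPs were present. They are named here for this role. *Ramp1* averaged 13.2 FPKM, *Ramp2* 6.80 and *Ramp3* 2.66 over the 12 libraries. *Ramp3* was at 4.28 ± 3.24 FPKM (SD, n = 5) in WT and 1.50 ± 1.08 (n = 7) in Homo, with ranges of 0.779 to 9.04 and 0 to 2.92 that overlap. Its log2 fold change of -0.98 had an unadjusted limma p of 0.0467 and an adjusted p of 0.899, so it did not pass. *Mrap2*, which binds melanocortin receptors and alters their signal, was at 18.5 FPKM, with a log2 fold change of 0.32 (limma, adjusted p = 0.915).

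The serotonin receptors were both of low abundance, *Htr1b* next to *Mc4r* at the bottom of the order. *Htr2c* (chromosome X, 146962513 to 147197277, plus strand) encodes the receptor through which serotonin excites POMC neurons. It was at 1.00, 1.82, 2.62, 1.94 and 2.10 FPKM in WT 1 to 5, and ranged in Homo from 1.15 (Homo 2) through a median of 1.95 to 5.36 FPKM (Homo 3). The medians of the genotypes were nearly equal (1.94 in WT), and Homo 3, the lowest library for *Npy2r*, *Npy5r* and *Mc3r*, was the highest for *Htr2c*. The mean was 1.90 ± 0.583 FPKM (SD, n = 5) in WT and 2.48 ± 1.38 (n = 7) in Homo, a log2 fold change of 0.21 (SE 0.28, interval -0.39 to 0.81; limma, adjusted p = 0.942; exact permutation p = 0.455). Without Homo 3 it was 0.050.

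5-HT1B sits on AGRP neurons, which serotonin inhibits through it. *Htr1b* (chromosome 9, 81628291 to 81633828, minus strand) was at 0.580, 0.918, 0.713, 0.0780 and 0.382 FPKM in WT 1 to 5. In Homo it was listed at 0 in Homo 2, had a median of 0.536 and reached 0.933 FPKM in Homo 7. The groups covered the same range (exact permutation p = 0.812), and the log2 fold change from the fit without the filter was -0.045 with an interval of -0.51 to 0.42 (limma, adjusted p = 0.973). An antisense transcript, *D430036J16Rik*, overlaps *Htr1b* and averaged 1.87 FPKM. Whether the counting used strand is not stated, and without strand reads of the pair cannot be told apart.

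*Oprm1* (chromosome 10, 6758506 to 7038198, plus strand), the receptor of β-endorphin and other opioids, had the largest difference of the 10. It was at 35.5, 27.6, 12.1, 17.0 and 17.8 FPKM in WT 1 to 5, and in Homo its lowest value was 15.0 FPKM (Homo 2), the median 31.1 and the highest 44.2 (Homo 7). In 6 of 7 Homo libraries it exceeded 17.8 FPKM, the median of WT, and in 1 it exceeded the highest WT library, WT 1. The mean was 22.0 ± 9.40 FPKM (SD, n = 5) in WT and 29.4 ± 9.36 (n = 7) in Homo, which is 33.8% higher, and the difference was within the spread (log2 fold change 0.43, SE 0.29, interval -0.19 to 1.05; limma, adjusted p = 0.915; exact permutation p = 0.191). *Ipcef1*, a gene on the opposite strand that overlaps *Oprm1*, averaged 4.74 FPKM.

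The difference between genotypes varied between the library sets in size and, for most receptors, in sign. For *Oprm1*, WT 1 and 2 were at 35.5 and 27.6 FPKM against 15.0 to 34.1 in Homo 1 to 5, a log2 difference of -0.31. Among the libraries with more genes above 0, WT 3 to 5 were at 12.1, 17.0 and 17.8 FPKM against 31.4 and 44.2 in Homo 6 and 7, a log2 difference of 1.22. These values did not overlap, as was so in that direction for 16.3% of all genes tested in the same 5 libraries. The summed ARC neuron markers did not overlap there either, at 1365, 2411 and 3251 FPKM in WT 3 to 5 against 4079 and 4176 in Homo 6 and 7. In the other set they were at 4667 and 4702 in WT 1 and 2 against 3465 to 5248 in Homo 1 to 5. The part of the marker level in the *Oprm1* values was not tested. The interaction of set and genotype for *Oprm1* was 1.53 with an unadjusted limma p of 0.00777 and an adjusted p of 0.876, and 5.18% of all genes had an unadjusted interaction p under 0.05. With the set as a second term its log2 difference between genotypes was 0.39 (exact permutation within sets, p = 0.300).

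Of the 8 tested receptors, 2 were higher in Homo among the libraries with fewer genes above 0 and 8 among those with more, against 40.1% and 64.6% of all genes. *Npy2r* was higher in Homo in both, by 0.26 and 0.37, and *Htr2c* by 0.47 and 0.020. *Glp1r* differed by -0.32 and 0.49, *Calcr* by -0.13 and 0.34, *Npy1r* by -0.39 and 0.34, *Mc3r* by -0.29 and 0.19, and *Npy5r* by -0.23 and 0.16. With the set in the model, 0 of 8 receptors had an unadjusted genotype p under 0.05, against 4.78% of all genes. The sets themselves did not differ in receptor level beyond the spread: the log2 difference between sets ran from -0.18 for *Glp1r* to 0.25 for *Npy2r*, with adjusted limma p-values of 0.856 and above, while 0.178% of all genes passed an adjusted p of 0.05.

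**Figure D3:**
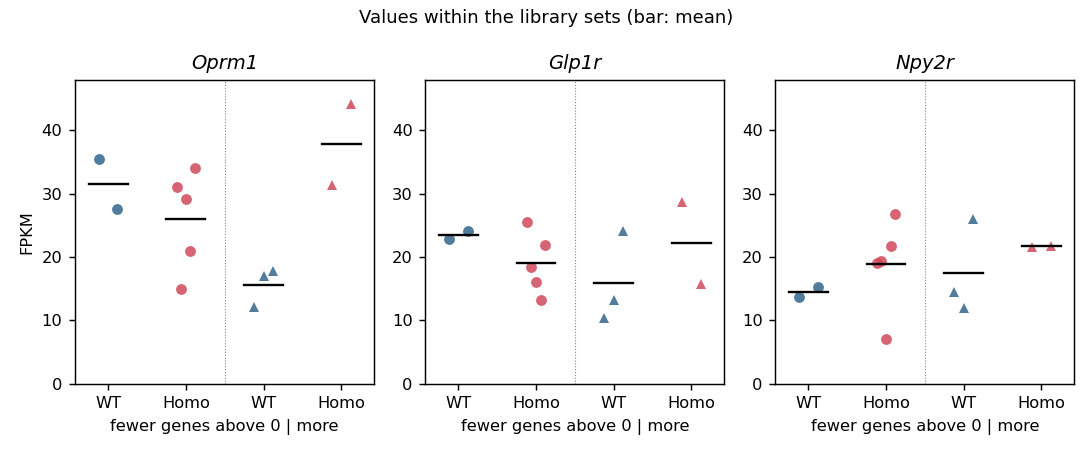
FPKM of *Oprm1*, *Glp1r* and *Npy2r* in each library (points; bars are means), split into libraries with fewer genes above 0 (left of the dotted line; 2 WT, 5 Homo) and with more (right; 3 WT, 2 Homo). *Oprm1* is separated by genotype only on the right, where WT lies at 12.1 to 17.8 and Homo at 31.4 and 44.2 FPKM. In those libraries the summed ARC neuron markers (not shown) were also lower in every WT than in either Homo library.

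WT 3 was the lowest library for 4 of the 8 tested receptors (*Oprm1*, *Glp1r*, *Calcr* and *Npy1r*) and also had the lowest sum of ARC and of general neuron markers. Homo 3 was the lowest for 3 (*Mc3r*, *Npy2r* and *Npy5r*) and had the lowest neuron marker sum among Homo. Their part in the genotype values was not tested beyond leaving the libraries out. Without WT 3, 3 of the 8 receptors were higher in Homo in place of 5, and the log2 fold changes of *Oprm1*, *Glp1r* and *Calcr* were 0.25, -0.079 and -0.011. With both WT 3 and Homo 3 left out, a choice made after the data were seen, 5 of 8 were higher, *Oprm1* by 0.25 and *Npy2r* by 0.41, and none passed.

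Over the 12 libraries 22 of the 28 pairs of receptors had a positive Pearson r, with a median of 0.41; the mean r was 0.249, against 0.0576 over all pairs of genes tested. Among the 7 receptors other than *Htr2c* all 21 pairs were positive, from 0.037 to 0.70. *Htr2c* ran the other way, with a negative r for 6 of its 7 pairs. The most negative was with *Npy5r*, at -0.65 (permutation p = 0.0236, adjusted 0.166; Spearman rho -0.27, permutation p = 0.392, adjusted 0.578), which was -0.39 without WT 2 and Homo 3. For 3 further pairs, r with *Htr2c* was nearer to 0 or positive without Homo 3 and 1 other library, at 0.18 for *Npy2r*, 0.43 for *Calcr* and -0.083 for *Mc3r*. All 28 pairs share the same libraries, and no pair had an adjusted p under 0.05 by either measure.

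The genes whose pattern over the 12 libraries was most like each receptor are given as a description. *Mc3r* was most like *Ncam1* (r = 0.924), a neural cell adhesion molecule, *Kcnk9* (0.923), a background potassium channel, and *C2cd2l* (0.921). *Npy1r* was most like *Cript* (0.945), *Rab1* (0.936) and *Spryd7* (0.936), *Npy2r* like *Atp8a1* (0.944), *4931428F04Rik* (0.939) and *Rhoa* (0.933), and *Npy5r* like *Ppp1r15b* (0.920), *Ift122* (0.916) and *Btbd3* (0.915). *Calcr* was most like *Thyn1* (0.941), *Fxr1* (0.923) and *Smg8* (0.922), and *Glp1r* like *Gm10012* (0.876), *Hsp90ab1* (0.871) and *Sobp* (0.868). *Htr2c* was most like *Cdk2ap1* (0.932), *Ddx52* (0.866) and *Tmc4* (0.852), and *Oprm1* like *Bcas2* (0.883), *Mrpl30* (0.875) and *D6Wsu163e* (0.859). Only genes tested were compared, so *Htr1b* and *Mc4r* could not appear. None of these 8 receptors was among the 3 genes most like another of them. With so many genes compared over 12 libraries, that says little about whether the receptors vary together.

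The genes around these receptors were read from the same fit, and 0 of the genes tested in the 6 lists passed an adjusted p of 0.05, against 1 of 14017 genes. Of 24 other receptors of the same families found in the table, 10 were tested. The median log2 fold change of these was -0.078, and 2 were higher in Homo, against 49.3% of all genes. An unadjusted p under 0.05 was found in 0, against 5.55% of all genes, and among so few genes 0 lies near that share. *Htr3b*, a subunit of the ion-channel serotonin receptor, had the smallest p, at 2.50 ± 1.98 FPKM (SD, n = 5) in WT and 1.05 ± 0.566 (n = 7) in Homo (log2 fold change -0.68; limma, adjusted p = 0.899). The glucagon and GIP receptors *Gcgr* and *Gipr* were listed at 0 in every library. *Oprl1*, the nociceptin receptor, exceeded the mean of all 10 receptors studied, at 38.3 ± 15.6 FPKM (SD, n = 5) in WT and 34.0 ± 5.30 (n = 7) in Homo; it and the receptors at 0 were named after their values were seen.

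Of the receptors of other feeding signals, such as leptin, ghrelin, orexin and somatostatin, 29 of 36 in the table were tested. Of these, 10 were higher in Homo, against 49.3% of all genes, and the median log2 fold change was -0.16. That median was -0.41 among the libraries with fewer genes above 0 and 0.043 among those with more. *Cnr1*, the cannabinoid CB1 receptor, had the smallest p, at 6.18 ± 5.38 FPKM (SD, n = 5) in WT, where it ranged up to 15.7, and 2.98 ± 0.708 (n = 7) in Homo (log2 fold change -0.64; limma, adjusted p = 0.899). With the set in the model, 1 of the 29 was higher and 2 were lower at an unadjusted limma p under 0.05. In that model 4.78% of all genes had an unadjusted p under 0.05, and none of the 29 passed an adjusted p of 0.05. Those under 0.05 are named after their values were seen: *Adra1a* (an adrenergic receptor, 0.80), *Cnr1* (-0.74) and *Crhr2* (a receptor of urocortins, -1.24). Their unadjusted limma p-values in that model were 0.00781, 0.0472 and 0.0488. *Crhr2* varied widely in WT, at 4.78 ± 6.24 FPKM (SD, n = 5) with a range of 0.915 to 15.9. In Homo it was at 1.46 ± 2.18 (n = 7), with a range of 0.125 to 6.28.

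Most of the tested ligands had the higher mean in Homo. Of 17 ligand and ligand-synthesis genes measured, 7 were tested, 6 of these were higher in Homo, and the median log2 fold change was 0.49, against 49.3% of all genes higher. After adding the library set as a term, the median was 0.30. Among the libraries with fewer genes above 0 it was 0.22, and among those with more 0.47. *Npy*, the ligand of Y1, Y2 and Y5, was at 1015 ± 390.4 FPKM (SD, n = 5) in WT and 1472 ± 306 (n = 7) in Homo, a log2 fold change of 0.60 (limma, unadjusted p = 0.0269, adjusted p = 0.887). *Agrp* also had an unadjusted p under 0.05, with a log2 fold change of 0.60 (limma, adjusted p = 0.899). When the fit included the library set, the unadjusted limma p-values were 0.0655 for *Npy* and 0.0780 for *Agrp*. *Npy*, *Agrp* and the ligand gene *Pomc* are among the ARC neuron markers whose sum was higher in Homo, and the study chose to examine them. They are thus not independent evidence of the list's direction. The paper itself reported significantly higher *Npy* and *Agrp* and unaltered *Pomc* from its ARC RNA-seq (n = 5 in its figure), and higher *Agrp* by in situ hybridization. It also listed many more genes as differing in the ARC than were called here. Its number of samples and its criterion for these calls thus differ from those used here, and the 2 sets of results are not at the same threshold. Transcripts of the ligands and serotonin genes made elsewhere were near 0: *Gcg*, the GLP-1 precursor, averaged 0.0624 FPKM, *Tph2*, the neuronal serotonin synthesis enzyme, 0.0728, and *Iapp* (amylin) and *Slc6a4* (the serotonin transporter) were listed at 0.

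Downstream of the receptors, 27 of 32 G protein and effector genes were tested. Of these 12 were higher in Homo, the median log2 fold change was -0.0061, and 0 had an unadjusted p under 0.05. Over all genes tested, to be set beside each list of this paragraph, 49.3% were higher in Homo and 5.55% had an unadjusted p under 0.05. *Plcb3*, a phospholipase C, had the smallest p, at 0.723 ± 0.182 FPKM (SD, n = 5) in WT and 1.65 ± 0.713 (n = 7) in Homo (log2 fold change 0.59; limma, adjusted p = 0.899). Its groups did not overlap (0.443 to 0.890 FPKM in WT, 1.00 to 3.03 in Homo), as was so for 0.221% of all genes. It was picked by its p from the list, its level is low, and its mean in WT alone lay under the filter of 1 FPKM. All 23 kinases, arrestins and RGS proteins that end receptor signals and were found in the table were tested, 7 were higher in Homo, and the median was -0.13. *Rgs20* had the smallest p of these, at 18.3 ± 5.73 FPKM (SD, n = 5) in WT and 11.9 ± 5.90 (n = 7) in Homo (log2 fold change -0.69; limma, adjusted p = 0.901). Of the 8 accessory proteins tested, 3 were higher in Homo, the median was -0.074 (0.21 among the libraries with more genes above 0), and *Ramp3* had the smallest p.

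**Figure D4:**
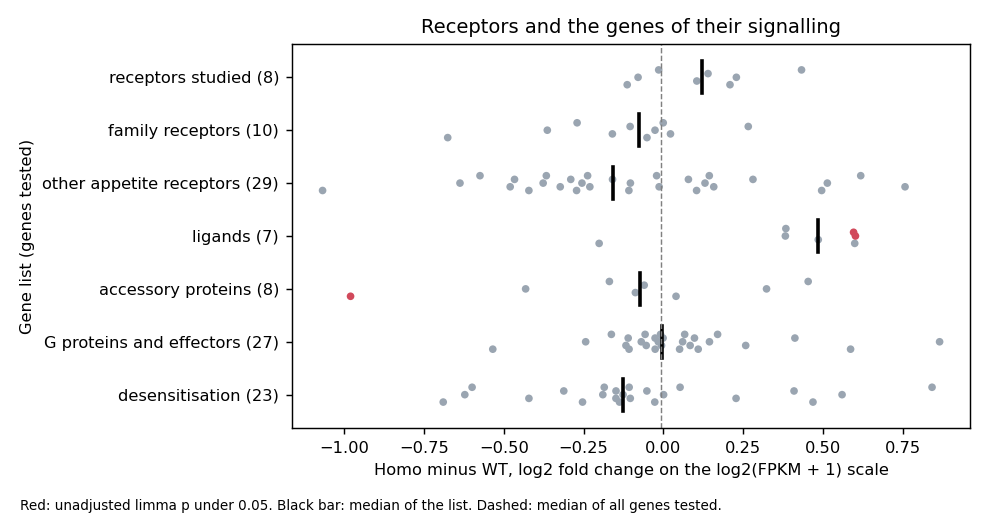
Log2 fold change, Homo minus WT, on the log2(FPKM + 1) scale, of each tested gene (points) of the receptors studied and of 6 lists around them; black bars are list medians, the dashed line is the median of all genes tested, and red points have an unadjusted limma p under 0.05. The receptor median of 0.12 lies near the dashed line at -0.0062, and the ligand median lies at 0.49.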

How the data were processed

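RNA of the ARC was sequenced on an Illumina instrument by the authors, who deposited 1 table of FPKM values for 38283 genes. The submitters' processing notes name TopHat2 2.0.8, Cufflinks 2.2.1 and GRCm38. The table holds no counts, and 14.6% to 44.6% of the low values examined per library lay on whole-fragment steps (within 0.05 fragments), so reads were not recovered and depth is unknown. FPKM depend on the annotated transcript length and on amplification. All 12 columns were matched to samples by name, and 0 were left over; those of Homo 4 and 5 carry an extra letter and were matched by genotype and number. The labels do not say whether each library is 1 mouse, so p-values measure the spread between libraries.

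Values were taken as log2(FPKM + 1), a pseudocount of 1. The methods read here list the parametric and rank tests of the study in general, with none given for this RNA-seq in particular, so limma 3.58.1 in R 4.3.3 (lmFit; eBayes with trend and robust variances) was run over 14017 genes with a mean of at least 1 FPKM, with no term besides genotype, and p-values were adjusted by the Benjamini-Hochberg method over all of them. Single genes were also tested by exact two-sided permutation over 792 splits (smallest p 0.00126) and over 210 splits within library sets (smallest p 0.00476), and neighbours in level over 4096 sign patterns (smallest p 0.000488). Correlations used 100000 permutations. Library sets were split at the largest gap in genes above 0, without use of genotype. Intervals are limma's 95% intervals. Scripts were tested on simulated data.

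The receptors and gene lists were chosen with earlier results of these data known. Named genes were all 10 receptors, the smallest p of each list, the 3 genes most like each tested receptor, *Prkag2* and the extreme markers. Others are marked where they appear, except some that no such rule chose. These are *Agrp*, *Pomc*, *Mrap2*, *Gcg*, *Tph2*, *Iapp*, *Slc6a4* and the genes that overlap *Htr1b* and *Oprm1*. Positions are from GENCODE M21 on GRCm38, in which 97.5% of tested gene identifiers were found. The alternatives were other pseudocounts, filters and scalings, array weights, the library set, the replicate block and leaving out libraries.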

Additional observations from a re-analysis of the deposited data

Results flagged for a closer look

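In Homo 3, *Npy2r* was at 7.13 FPKM, with the nearest Homo library at 19.1, and *Npy5r* was at 0.871 FPKM, with the nearest at 3.10. In both, on the log2(FPKM + 1) scale, the gap to the other libraries of the group was large for its range by Dixon's criterion. On the FPKM values themselves the criterion was met for *Npy2r* but not for *Npy5r*, and 4 groups met it, the others being *Mc4r* in WT 2 (1.12 FPKM), *Npy2r* in WT 5 (26.0) and *Htr2c* in Homo 3 (5.36). Values of 10 receptors in 2 genotypes, 20 groups in all, were examined and 2 stood out on the log2 scale, where chance alone marks about 1 in 20. The neuron marker sum of Homo 3 was 844 FPKM, the lowest among Homo; its part in these values was not tested.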

How the results depend on the processing

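None of the receptors passed an adjusted p of 0.05 in the 24 alternatives. The number of genes called, 1, was 6 and 19 in the libraries with fewer and with more genes above 0 alone, 4 with Homo 1 to 5 only, 2 with the replicate block, and 1 to 3 with 1 library left out (3 without WT 2, 2 without Homo 4). The replicate numbers share no stated origin, and deviations of same-numbered libraries correlated at -0.054 to 0.029, so they were not taken as pairs. The receptors with an unadjusted p under 0.05, 0 of 8, were 1 with array weights and 1 in the libraries with more genes above 0 (*Oprm1* in both), and 0 to 1 with 1 library left out (*Oprm1* without WT 1, *Npy2r* without Homo 3); with the set in the model they were 0 to 1 (*Npy2r* without Homo 3). The receptors higher in Homo, 5 of 8, were 2 and 8 within the sets and 3 to 7 with 1 library left out (3 without WT 3).

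A changed filter on low values leaves a receptor's fold change as it is, so it could not reverse any. The replicate block repeated the fold changes of Homo 1 to 5 only. Such fixed and repeated values are part of the totals, which are therefore not counts of independent checks. Of 234 fold changes of single receptors under alternatives, 203 kept their direction and 31 reversed, none of *Npy2r* or *Htr2c*. In the libraries with fewer genes above 0 these were *Glp1r* -0.32, *Calcr* -0.13, *Oprm1* -0.31 and *Mc4r* -0.22. In those with more, they were *Mc3r* 0.19, *Npy1r* 0.34, *Npy5r* 0.16 and *Htr1b* 0.20. Array weights gave *Npy1r* 0.14, *Npy5r* 0.11 and *Htr1b* 0.047, quantile normalization *Htr1b* 0.030, and both Homo 1 to 5 only and the replicate block *Mc4r* -0.019. Without WT 3 and Homo 3, *Npy5r* was 0.062 and *Glp1r* -0.036. With 1 library left out, the log2 fold change ran from -0.18 to 0.19 for *Npy1r*, -0.27 to 0.14 for *Npy5r*, -0.079 to 0.21 for *Glp1r*, -0.011 to 0.24 for *Calcr*, -0.17 to 0.046 for *Htr1b*, -0.014 to 0.26 for *Mc4r* and 0.25 to 0.62 for *Oprm1*. The cause was not tested. Scaling moved the median of all genes by at most 0.024.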
